A study of Mus musculus with 10 samples.

Results

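The genes described here are 8 cell cycle genes whose transcripts are abundant from S phase to mitosis, Mki67, Top2a, Cdk1, Ccna2, Ccnb1, Aurkb, Birc5 and Rrm2, in the hearts of mice aged 6 weeks. They were chosen by symbol from a table of 24537 genes, and all 8 were in the table and passed the filter of at least 10 counts summed over the libraries, as did 17728 genes in all. Heart RNA was sequenced from 5 control and 5 iSOD2 mice. Control mice carried Rosa26-rtTA2+/-;TRE-SOD2-shRNA-/- and iSOD2 mice Rosa26-rtTA2+/-;TRE-SOD2-shRNA+/-, so that both groups carried 1 copy of the doxycycline-responsive transactivator rtTA2, driven by the Rosa26 promoter, and only iSOD2 mice carried the hairpin against Sod2, placed at the Col1a1 locus. All dams were wild-type C57BL/6J females fed doxycycline chow while pregnant and normal chow from birth, so both groups were exposed in utero and neither had been fed doxycycline after birth. The controls were 3 males and 2 females and the iSOD2 mice 2 males and 3 females. The labels place 2 controls and 2 iSOD2 mice in litter A, and 3 of each in litter B. Litter A held 3 males and 1 female (iSOD2 8), and litter B 2 males and 4 females. The mice are separate animals of only these litters. A p-value for litter, or from a test that takes litter into account, measures the spread between littermates. In genotype and sex tests without litter, the spread also includes the difference between litters. Anything that a litter shared (its dam, its day of birth, of harvest or of RNA extraction) cannot be told apart from litter.

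In dividing cells, E2F transcription factors switch on the genes of DNA synthesis at the end of G1, and a second wave of genes, driven by B-MYB and FOXM1 on promoters held silent by the DREAM complex in resting cells, follows in G2. DREAM and its activating counterpart bind through an element called the cell cycle genes homology region, or CHR, often near CCAAT boxes bound by NF-Y. Mouse cardiomyocytes leave the cell cycle in the weeks after birth, and in the young heart much of the division that remains is in endothelial cells, fibroblasts, mural cells and macrophages.

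Rrm2 encodes the regulated subunit of ribonucleotide reductase, which makes the precursors of DNA. Ccna2 encodes cyclin A2, which acts in S phase and G2, and Top2a the topoisomerase that untangles replicated chromosomes. Cdk1 and its partner cyclin B1, from Ccnb1, drive entry into mitosis. Aurkb encodes the kinase of the chromosomal passenger complex and Birc5 survivin, another of its subunits, and Mki67 encodes the coat protein of mitotic chromosomes known as Ki-67. To show the elements through which such genes are known to be controlled, the promoters of 3 genes of G2 and mitosis (Top2a, Cdk1 and Ccnb1) and of the S phase gene Rrm2 are given from 250 bases before to 50 after the RefSeq start, 5′ to 3′ on the strand of the gene, with CHR core letters (TTTGAA, its reverse complement TTCAAA, or TTTAAA) and CCAAT boxes (CCAAT or ATTGG) in capitals (RefSeq, GRCm38.p6).
Top2a, chr11:99024140-99024439, minus strand: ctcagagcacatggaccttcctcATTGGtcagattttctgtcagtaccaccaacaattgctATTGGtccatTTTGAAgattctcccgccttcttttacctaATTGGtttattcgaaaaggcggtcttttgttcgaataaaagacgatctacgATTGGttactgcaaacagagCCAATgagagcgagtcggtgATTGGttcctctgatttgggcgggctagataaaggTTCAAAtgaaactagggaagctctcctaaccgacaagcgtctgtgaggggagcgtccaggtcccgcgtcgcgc
Cdk1, chr10:69352863-69353162, minus strand: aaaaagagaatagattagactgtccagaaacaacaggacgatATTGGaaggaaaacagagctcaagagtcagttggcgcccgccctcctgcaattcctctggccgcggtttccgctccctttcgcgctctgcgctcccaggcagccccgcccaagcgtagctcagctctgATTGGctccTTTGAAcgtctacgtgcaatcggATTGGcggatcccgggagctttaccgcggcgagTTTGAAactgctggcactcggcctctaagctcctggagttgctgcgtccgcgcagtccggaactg
Ccnb1, chr13:100786437-100786736, minus strand: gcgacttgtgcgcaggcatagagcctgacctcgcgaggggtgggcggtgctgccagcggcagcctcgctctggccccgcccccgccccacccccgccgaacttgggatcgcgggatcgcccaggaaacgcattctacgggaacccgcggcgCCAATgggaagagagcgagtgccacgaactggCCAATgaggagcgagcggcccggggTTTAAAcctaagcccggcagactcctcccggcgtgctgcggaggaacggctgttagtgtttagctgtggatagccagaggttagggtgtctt
Rrm2, chr12:24708004-24708303, plus strand: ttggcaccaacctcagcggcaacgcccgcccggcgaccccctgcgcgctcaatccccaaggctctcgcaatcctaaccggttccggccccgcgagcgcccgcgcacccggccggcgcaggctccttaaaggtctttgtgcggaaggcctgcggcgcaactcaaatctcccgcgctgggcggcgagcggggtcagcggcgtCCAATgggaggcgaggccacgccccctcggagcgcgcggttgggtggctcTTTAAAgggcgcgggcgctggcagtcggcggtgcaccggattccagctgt
Promoters were found for 6 of the 8 genes, and not for Ccna2 and Aurkb. CHR core letters stood in 6 of these 6, against 27.6% of the 32851 promoters of the same length, and CCAAT boxes in 5 of 6, all but Birc5, against 37.4%. Both stood together in 5 of 6, against 10.7%. E2F letters, taken as TTCCCGC, else as TTCGCGC, else as TTGCCGC, else as TTGGCGC on either strand, stood in 4 of 6 (Mki67, Cdk1, Ccnb1 and Rrm2), against 9.57% of promoters. The last of these can share its first bases with an ATTGG box, and a match describes the letters only.

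In units of 1000000, counts in genes were 16.4 to 24.3 per library, 18.5 to 23.5 in litter A and 16.4 to 24.3 in litter B, and 38.4% to 42.6% of aligned tags fell in genes. The 45 pairs of libraries all differed by more than sampling noise (lowest chi-square 5.46 per degree of freedom). Sod2, the target of the hairpin, had 9562 to 11019 normalized counts in control and 10116 to 11305 in iSOD2 hearts (log2 fold change 0.03, SE 0.05, DESeq2 adjusted p = 0.806), and between litters its log2 fold change was -0.00261. Ventricular cardiomyocyte markers summed, in the same units, to 4.65 to 5.57 normalized counts in litter A and 4.28 to 4.72 in litter B, so all libraries carried the markers of heart muscle.

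Levels of the 8 genes were next compared with each other. Per kilobase of exon, the mean over the 10 mice was 63.6 ± 35.7 normalized counts for Mki67, 58.4 ± 35.7 for Top2a, 43.1 ± 14.7 for Ccna2, 26.3 ± 5.43 for Rrm2, 13.1 ± 6.99 for Cdk1, 11.5 ± 4.47 for Aurkb, 9.12 ± 4.87 for Ccnb1 and 6.68 ± 2.98 for Birc5 (SD, n = 10). On that scale 54.2% of the fitted genes lay above Mki67, 55.7% above Top2a and 82.3% above Birc5. Mki67 was above Top2a, Ccna2 above Rrm2, Rrm2 above Cdk1 and Ccnb1 above Birc5 in 10 of 10 mice. Top2a was above Ccna2 in 7 of 10, Cdk1 above Aurkb in 6 of 10 and Aurkb above Ccnb1 in 8 of 10. Over all 10 mice these last neighbours were not ordered beyond the spread between mice, which includes the difference between litters. The mean of Top2a was under that of Ccna2 in litter A (24.2 and 27.99) and above it in litter B (81.1 and 53.2). Cdk1 and Aurkb also changed places (5.88 and 6.95 in litter A, 17.99 and 14.53 in litter B). The mean of Aurkb was above that of Ccnb1 in both litters. The last place of Birc5 depended on its exon length, 3411 bases for the 1 transcript counted, against 2305 for Ccnb1. Before division by length Birc5 averaged 22.6 normalized counts in control and 23.0 in iSOD2 hearts, and Ccnb1 22.5 and 19.5. The scarcest values rested on few reads. Birc5 had 5.5 to 38 deposited counts per library, Ccnb1 8 to 35.5 and Aurkb 8.5 to 35, while Mki67 had 275 to 1047.

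Whether the level of these genes followed litter was compared first, because litter is the larger division of their values. The 8 genes had been chosen with earlier results of these data known. The p-values and shares below therefore describe the difference and are no independent support for it. Hearts of litter B held more of the transcripts of 7 of the 8 genes, from 1.88-fold more for Ccna2 to 3.30-fold more for Top2a, and the eighth, Rrm2, was 1.40-fold higher without passing the test. The 7 that passed are genes of late S phase, G2 and mitosis. Whether they rose by more than Rrm2 was not tested, nor was a difference between phases. DESeq2 with genotype as a covariate called 7 of 8 higher in litter B, where 2.52% of the 15654 genes with an adjusted p were called higher. The median log2 fold change was 1.24 for the 8 genes and -0.00219 over those 15654 genes. All 8 were higher in litter B in the exact permutation test of litter labels over 210 arrangements, 7 of them at its smallest possible p of 0.00476 and Rrm2 at 0.019. In 7 of 8 genes every mouse of litter B was above every mouse of litter A, a pattern shown by 2.55% of genes. In bulk heart tissue, fewer cycling cells and less of these transcripts per cycling cell cannot be told apart.

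**Figure D1:**
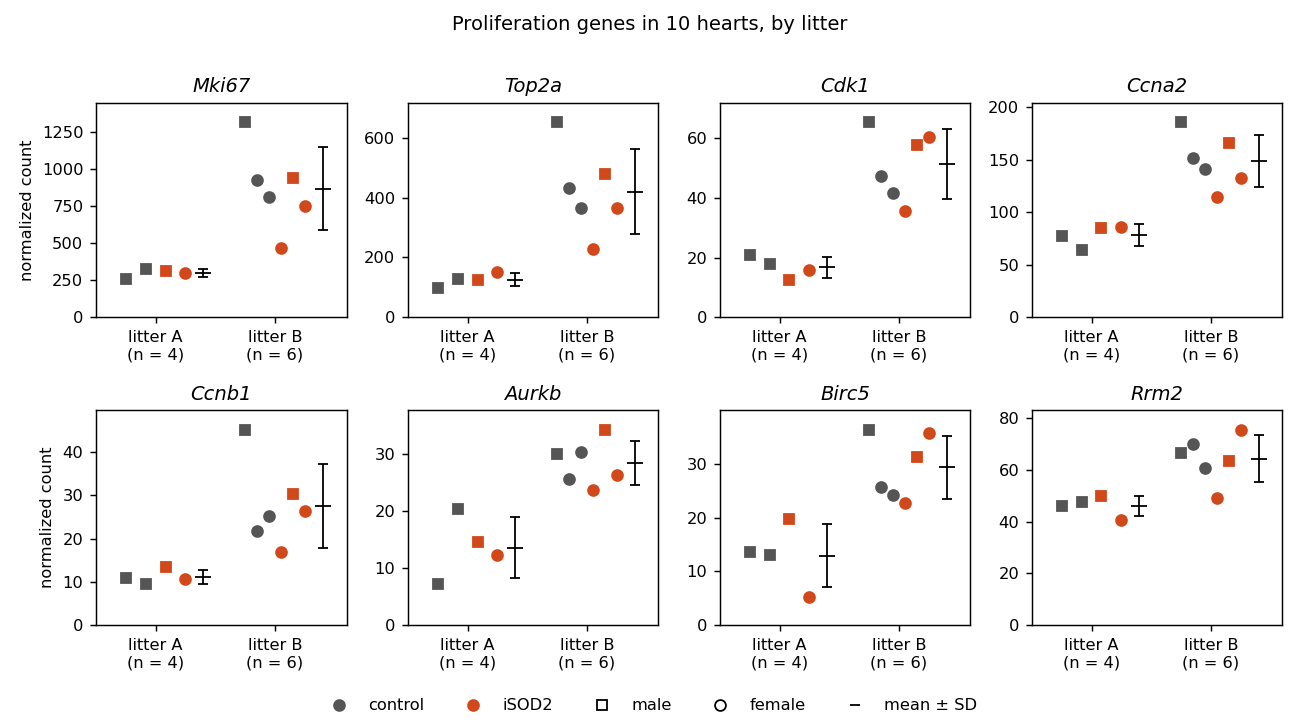
Normalized counts (vertical axes, from 0) of the 8 genes in each of 10 hearts, by litter, with genotype in colour, sex as the symbol and the mean ± SD of each litter beside its points. Every litter B mouse lies above every litter A mouse except for Rrm2, and iSOD2 5 is the lowest mouse of litter B in all 8 panels.

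Rrm2, the ribonucleotide reductase subunit, differed least. Its normalized counts in litter A were 46.1 and 47.7 in controls 1 and 2 and 49.7 and 40.6 in iSOD2 7 and 8. In litter B the lowest value was 49.0, the median 65.0 and the highest 75.4. The litters overlapped by 1 mouse, since iSOD2 5 of litter B lay just under iSOD2 7 of litter A. It differed by 0.48 on the log2 scale (SE 0.19, DESeq2 adjusted p = 0.157).

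Ccna2, the cyclin of S phase and G2, had 77.8 and 64.5 normalized counts in the controls and 85.0 and 86.4 in the iSOD2 mice of litter A. In litter B it ran from 115 through a median of 147 to 186, with no overlap. The difference was 0.91 on the log2 scale (SE 0.16, DESeq2 adjusted p = 3.89e-06). The last 863 bases of Ccna2 overlap Exosc9 on the opposite strand (GENCODE, GRCm38), and since no strand option was stated for the counting, some of its counts may be reads of that exosome subunit. Exosc9 itself had 227 to 286 normalized counts, and did not pass between litters (-0.03 on the log2 scale, SE 0.10, DESeq2 adjusted p = 0.953).

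Top2a showed the steepest difference of the 8. Its normalized counts were 96.8 and 129 in the controls and 126 and 150 in the iSOD2 mice of litter A, against a lowest value of 230, a median of 399 and a highest of 651 in litter B. The difference was 1.72 on the log2 scale (SE 0.29, DESeq2 adjusted p = 5.98e-07). Within single libraries the ratio of Top2a to Rrm2 deposited counts was 2.10 to 3.70 in litter A and 4.69 to 9.79 in litter B, so the topoisomerase transcript differed by more than the ribonucleotide reductase transcript whatever the scaling between libraries.

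Cdk1, the mitotic kinase, had 20.8 and 17.9 normalized counts in controls 1 and 2 and 12.4 and 15.9 in iSOD2 7 and 8. In litter B its counts were 35.5 at the lowest, 52.6 at the median and 65.2 at the highest. The litters did not overlap (log2 fold change 1.61, SE 0.28, DESeq2 adjusted p = 2.26e-06). Its partner Ccnb1 had 10.9 and 9.55 normalized counts in the controls and 13.5 and 10.6 in the iSOD2 mice of litter A, against 16.9, 25.8 and 45.1 as the lowest, median and highest of litter B. These litters were also apart (log2 fold change 1.29, SE 0.36, DESeq2 adjusted p = 0.0119), but the call rested on single mice and was lost without control 1, 2 or 3, with adjusted p up to 0.0879. GENCODE lists a pseudogene, Ccnb1-ps, with which reads of Ccnb1 could have been shared. The ratio of Cdk1 to Ccnb1 deposited counts overlapped between litters, at 0.923 to 1.92 in litter A and 1.44 to 2.29 in litter B.

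Aurkb, the passenger complex kinase, had 7.24 and 20.3 normalized counts in the controls and 14.5 and 12.3 in the iSOD2 mice of litter A, and 23.6, 28.2 and 34.2 as the lowest, median and highest of litter B. Birc5, or survivin, had 13.6 and 13.1 in the controls and 19.7 and 5.29 in the iSOD2 mice of litter A, and 22.8, 28.5 and 36.4 in litter B. Both were apart between litters and both were called, with log2 fold changes of 1.09 (SE 0.32, DESeq2 adjusted p = 0.0227) and 1.20 (SE 0.34, DESeq2 adjusted p = 0.018). Their calls were the least secure. That of Aurkb was lost in 7 of 10 fits that left out a mouse (without control 1, 3 or 6 or iSOD2 7, 8, 9 or 10, adjusted p up to 0.263), and that of Birc5 in 6 of 10 (without control 1, 2 or 3 or iSOD2 8, 9 or 10, adjusted p up to 0.152) and with edgeR (adjusted p = 0.0561). Without control 1 or without control 3, 4 of the 8 genes stayed called.

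Mki67 had the smallest adjusted p of the 8. Its normalized counts were 259 and 328 in the controls and 311 and 299.8 in the iSOD2 mice of litter A, and 466, 868 and 1312 as the lowest, median and highest of litter B. The difference was 1.51 on the log2 scale (SE 0.25, DESeq2 adjusted p = 3.56e-07). The ratio of Mki67 to Rrm2 deposited counts was 5.61 to 7.39 in litter A and 9.52 to 19.7 in litter B, with no overlap, while those of Top2a to Mki67 (0.374 to 0.5 and 0.45 to 0.511) and of Mki67 to Ccna2 (3.33 to 5.09 and 4.06 to 7.07) overlapped. Mki67, Top2a, Cdk1 and Ccna2 were called in all 10 fits that left out a mouse.

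The litter difference was then taken within each genotype and each sex. Summed over the 8 genes, normalized counts were 532 to 630 in the controls and 621 to 632 in the iSOD2 mice of litter A, and 1501 to 2391 and 958 to 1795 in those of litter B. Males had 532 to 632 in litter A and 1795 to 2391 in litter B, and the single litter A female had 621 against 958 to 1699 in the 4 females of litter B. All 8 fold changes were positive among controls, among iSOD2 mice and among males. With fewer mice, DESeq2 called 3 of 8 genes among the controls alone, 2 among iSOD2 mice alone and 4 among males alone. A single litter A female cannot show a litter difference among females. With genotype and sex as covariates 6 were called. Permuting litter within genotype gave an exact p of 0.01 for 7 genes and 0.03 for Rrm2, where 0.01 is the smallest that 100 arrangements allow.

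**Figure D2:**
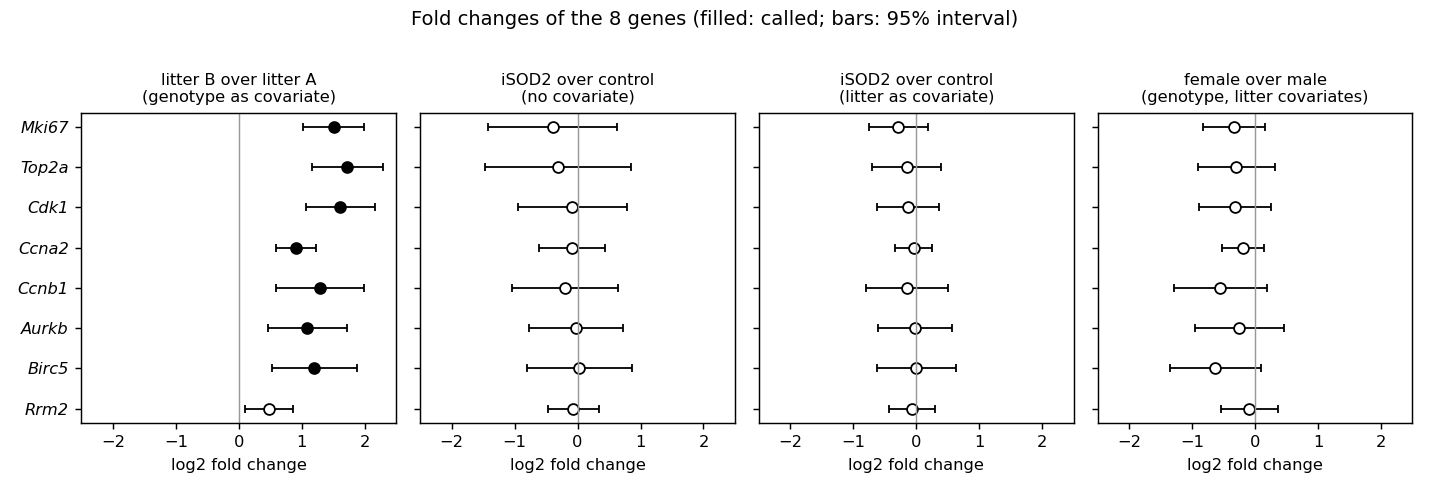
Log2 fold changes of the 8 genes with 95% intervals from DESeq2, in 4 panels for litter B over litter A, iSOD2 over control without and with litter as a covariate, and female over male with genotype and litter as covariates; filled points were called. The litter values run from 0.48 to 1.72 and 7 are filled, and no point is filled in the other panels, where the intervals narrow once litter is a covariate.

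Litter B itself was not uniform. iSOD2 5, a female, was the lowest of its 6 mice for all 8 genes, and control 3, a male, the highest for 6 of 8. On the log2(normalized count + 1) scale, iSOD2 5 deviated from the mean of its litter by -0.504 on average over the 8 genes, and control 3 by 0.412. The SD of the log2 level within litter B was 0.49 for Mki67 and 0.497 for Top2a, against differences between litters of 1.47 and 1.68, and 0.211 for Rrm2 against 0.463. Whether the 8 genes varied together among these 6 mice was asked next. Pooled over litters a correlation would have restated their separation, so it was taken within litter B alone, where all 28 pairs had a positive Pearson r (lowest 0.246, median 0.714, highest 0.991) and Spearman's rho ran from -0.0286 to 1 with a median of 0.686. By exact permutation of 6 mice over 720 arrangements, 11 pairs had p under 0.05 and 4 had a Benjamini-Hochberg adjusted p of at most 0.05 over the 28 pairs, with 2 by Spearman's rho. These 4 were Mki67 with Top2a (r = 0.991), Mki67 with Ccna2 (r = 0.967), Top2a with Ccna2 (r = 0.981) and Cdk1 with Birc5 (r = 0.967). For each pair r was also taken without the 2 mice farthest from the median of its first gene, so the mice left out could differ between pairs. Then 17 of 28 pairs were still positive and the median r was 0.308. Without iSOD2 5 the median r was 0.489, so it was lower without mice of extreme values. Leaving such mice out narrows the range and can itself lower r, so whether the relation rests on them cannot be told. Aurkb with Rrm2 had the lowest rho, and its r was -0.82 without the 2 mice farthest from the median of Aurkb.

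Other cell cycle genes were compared by lists of their roles. Of 30 genes of mitosis, 21 rose in litter B and 0 fell. All 30 fold changes were positive and their median was 1.18 on the log2 scale, where 49.3% of the 15654 genes with an adjusted p were positive. Melk, a kinase of mitosis, rose from 7.20 ± 1.64 normalized counts in litter A to 26.1 ± 9.87 in litter B (log2 fold change 1.81, SE 0.42, DESeq2 adjusted p = 0.00129; SD, n = 4 and 6). Pbk, another mitotic kinase, rose from 7.36 ± 1.91 to 25.3 ± 10.5 (log2 fold change 1.77). Bub1, the spindle checkpoint kinase, rose by 1.71 on the log2 scale and Cenpe, the kinesin of kinetochores, by 1.57, from 27.8 ± 3.18 to 83.1 ± 27.9. These 4 kept their calls in all 10 fits that left out a mouse. Foxm1, the factor that drives this wave and a member of the list named here after its values were seen, rose by 1.44 (SE 0.24).

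The lists that act before mitosis moved less. Of 24 DNA replication genes, 7 rose and 0 fell, with 22 positive and a median log2 fold change of 0.34. Uhrf1, which guides maintenance of DNA methylation behind the fork, rose from 52.3 ± 6.70 to 128 ± 31.8 normalized counts (log2 fold change 1.29, SE 0.20, DESeq2 adjusted p = 3.68e-08). The origin licensing factor Cdc6 and the replication factor Mcm10 rose by 1.08 and 1.06, but in 6 and 7 of the 10 fits that left out a mouse their calls were lost. Hells, a remodelling helicase, had a log2 fold change of 0.71 without passing (DESeq2 adjusted p = 0.0628). Of 15 G1 cyclins, CDKs and E2F genes, 6 rose and 0 fell, with 13 positive and a median of 0.26. Ccnd1, the G1 cyclin D1, named after its values were seen, rose by 0.63 (SE 0.09, DESeq2 adjusted p = 2.55e-09) and was called in all 10 fits that left out a mouse. Mybl2, which encodes B-MYB, rose by 1.18 (SE 0.38, DESeq2 adjusted p = 0.0467), E2f2 by 0.92 and E2f7, a repressor of the family, by 0.85, while E2f1 had a log2 fold change of 0.73 without passing (DESeq2 adjusted p = 0.192). The call of Mybl2 and that of E2f2 were each lost in 7 of 10 fits that left out a mouse, and that of E2f7 in 1. Without control 1, 1 of the G1 genes and 2 of the replication genes were called. With edgeR, 2 of the replication genes and 3 of the G1 genes were called, against 21 of the mitosis genes.

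Of 20 CDK inhibitors, pocket proteins and checkpoint genes, 19 were fitted, 0 were called by DESeq2 in either direction and 10 were positive, with a median log2 fold change of 0.00067. At an unadjusted p under 0.05 there were 6 of 19, and edgeR also called 0. Without control 6 or without iSOD2 5, 8 or 9, with genotype and sex as covariates, or in control mice alone, 1 gene was called. Btg2, an antiproliferative gene, had 1108 ± 357 normalized counts in litter A and 737 ± 87.0 in litter B (log2 fold change -0.55, DESeq2 adjusted p = 0.068), and Rbl1, the pocket protein p107 of the DREAM complex, 122 ± 19.4 and 162 ± 20.3 (log2 fold change 0.41, DESeq2 adjusted p = 0.0538). Lin9, a subunit of DREAM, and Pkmyt1, an inhibitory kinase of CDK1, had 0.38 and 0.29.

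**Figure D3:**
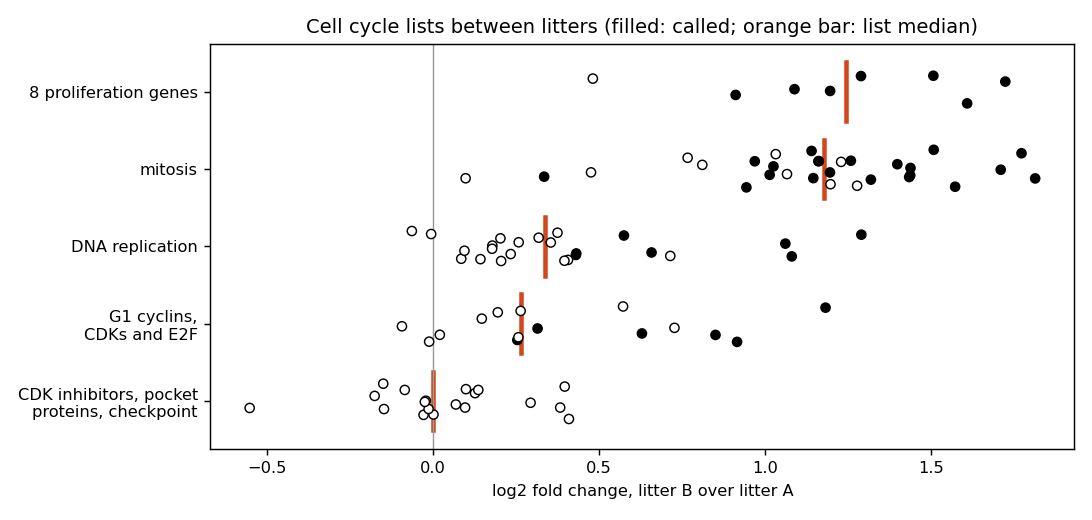
Log2 fold change of litter B over litter A (horizontal axis) for each fitted gene of the 8 and of the 4 cell cycle lists; filled points were called, orange bars mark list medians and the vertical scatter within a list has no meaning. The mitosis genes lie as far to the right as the 8 genes (medians 1.18 and 1.24), replication and G1 genes nearer to 0 (0.34 and 0.26), and the inhibitors around 0.

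Markers of the cells that the heart holds were set beside this difference. Ventricular cardiomyocyte markers, whose sums are given above, had negative fold changes in 8 of 9 (median -0.13). Their adjusted p was 0.000933 for Myh6 (log2 fold change -0.245), 0.00402 for Myl3 (-0.15) and 0.00715 for Myl2 (-0.18) by DESeq2, and they were not called because none passed the fold change threshold of 0.25. Endothelial markers summed to 19647 to 21934 normalized counts in litter A and 22163 to 24738 in litter B, without overlap. Of these 6, 4 had positive fold changes (median 0.12) and 1 was called (Cdh5, log2 fold change 0.32). Pecam1 had a DESeq2 adjusted p of 0.0012 but did not pass the fold change threshold (log2 fold change 0.199). Smooth muscle and pericyte markers summed to 20469 to 22332 and 22977 to 28661, also apart, with 1 of 6 called (Acta2, 3740 to 4730 and 6108 to 9445, log2 fold change 0.96). As a set they did not rise, since only 3 of 6 fold changes were positive and their median was -0.00574. Macrophage markers overlapped, at 5253 to 6722 and 5288 to 7799, with 2 of 8 called (C1qb and Lyve1). Fibroblast markers (14314 to 15090 and 14305 to 16026) overlapped, with 0 of 6 called. Lymphocyte markers (402 to 520 and 307 to 499.8), thymocyte markers (55.2 to 71.4 and 54.3 to 72.6) and neutrophil markers (19.1 to 36.2 and 10.1 to 33.6, with 2 of 8 undetected) were low in both litters, with 0 called in these 3 lists. Erythroid markers were at 74244 to 94132 and 79155 to 158798 (9 of 9 positive, median 0.44) and hepatocyte markers at 85.0 to 11220 and 4864 to 17945 (6 of 6 positive, median 1.16), with 0 called in either list. The part of these cells in the litter difference was not tested.

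Genes with the pattern most like the 8 over the 10 mice were ranked, as a description, by Pearson r to the mean of their centred log2 levels among the 12147 genes that averaged 50 normalized counts or more. The 10 highest were Aspm (r = 0.977), Tpx2, Cenpe, Nrp2, Vash1, Iqgap3, Knl1, Prc1, Hist1h2bk and Sparc (r = 0.960). Aspm, Tpx2 and Prc1 encode spindle proteins and Knl1 a kinetochore protein, and 3 of the 10 (Tpx2, Cenpe and Prc1) stood in the mitosis list. Others are of another kind. Nrp2 encodes a receptor of VEGF and semaphorins, Vash1 an angiogenesis inhibitor that is also a tubulin carboxypeptidase, and Sparc a matrix protein, with 7742 to 8165 normalized counts in litter A and 10171 to 13293 in litter B. After the mean of each litter was taken out, their r ran from 0.661 for Sparc to 0.946 for Aspm. Spearman's rho shared 2 of its 10 highest genes with this ranking, and ranking on deviations from litter means 1.

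**Figure D4:**
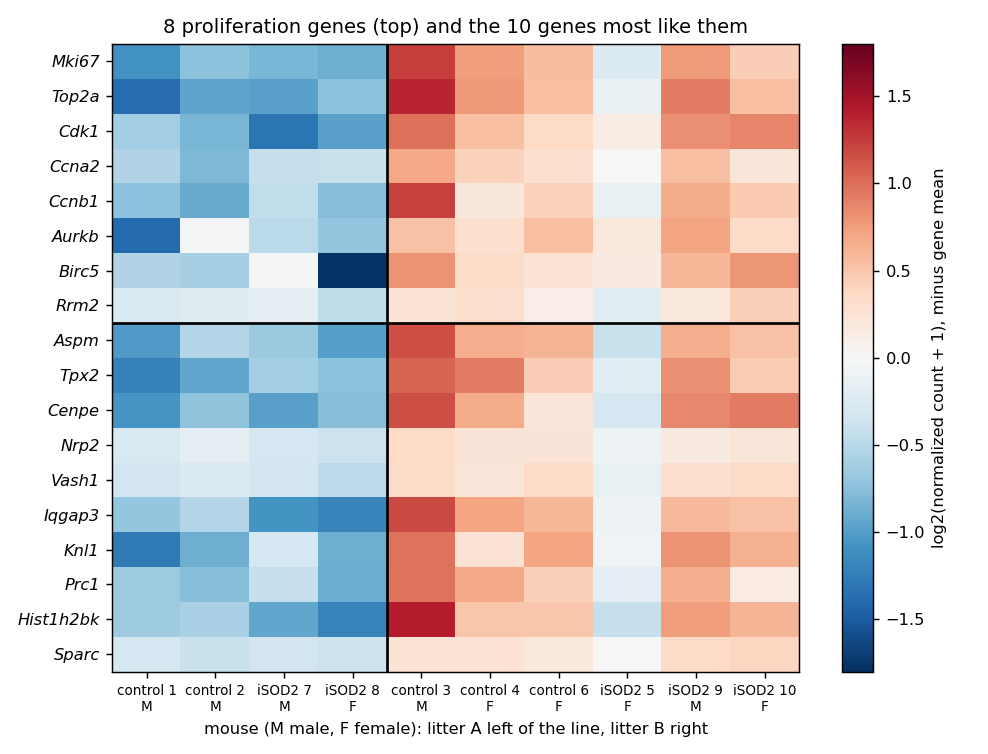
Log2(normalized count + 1) minus the mean of each gene over mice (colour scale) for the 8 genes, above the line, and the 10 genes most like them, in the 10 mice with litter A on the left. The 4 mice of litter A are below the mean for nearly all genes, iSOD2 5 is the palest mouse of litter B, and Rrm2, Nrp2, Vash1 and Sparc vary over a narrower range.

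The study's own question, whether transient loss of SOD2 before birth left a difference at 6 weeks, was then asked of these genes. DESeq2 called 0 of 8 between iSOD2 and control hearts, where 2.96% of the 9479 genes with an adjusted p were called in either direction. Log2 fold changes ran from -0.40 for Mki67 to 0.03 for Birc5, and 7 of 8 were negative. Mki67 had 259, 328, 1312, 925 and 811 normalized counts in controls 1, 2, 3, 4 and 6, and 466, 311, 299.8, 934 and 752 in iSOD2 5, 7, 8, 9 and 10. Each group held mice of both litters, and all iSOD2 values lay within the range of the controls (log2 fold change -0.40, SE 0.52, 95% interval -1.42 to 0.63, DESeq2 adjusted p = 0.728). Top2a had a log2 fold change of -0.31 (95% interval -1.47 to 0.85, DESeq2 adjusted p = 0.818). Independent filtering gave the other 6 no adjusted p, and 0 of 8 had an unadjusted p under 0.05 (lowest 0.451). edgeR called 0 of 8 as well, and 0 genes in all, with 2718 at an unadjusted p under 0.05.

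Taking litter into account narrowed the intervals without changing that count. With litter as a covariate the log2 fold change of Mki67 was -0.28 (95% interval -0.75 to 0.19), that of Top2a -0.15 (-0.70 to 0.39), that of Cdk1 -0.13 (-0.63 to 0.36) and that of Ccna2 -0.04 (-0.34 to 0.26), and 0 of 8 were called. Exact p-values ran from 0.627 to 0.96 over 252 arrangements and from 0.30 to 0.90 when genotype was permuted within litter (120 arrangements, smallest possible p 0.0167). The intervals do not exclude a change, for Mki67 one of up to -0.75 on the log2 scale. Within litter A alone 4 of 8 fold changes were negative (median 0.02) and within litter B alone 7 of 8 (median -0.14). A test of whether the genotype difference itself changed with litter called 0 of 8 (log2 interaction terms -0.73 to 0.45, 0 at an unadjusted p under 0.05, 0 with edgeR), where 0.00564% of the 17721 genes tested were called.

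Across the cell cycle lists DESeq2 called 0 genes by genotype in all 4. edgeR called 0 too. At an unadjusted p under 0.05 there were 0 mitosis genes without and 2 with litter as a covariate, 1 G1 gene, 0 replication genes and 3 inhibitor genes. The mitosis fold changes were mostly negative, with 28 of 30 negative and a median of -0.31. Over the 9479 genes with an adjusted p, which held only 3 of these 30, 47.3% were positive and the median was -0.00793. Cdc20, the activator of the anaphase-promoting complex, had 52.4 ± 24.5 normalized counts in control and 34.3 ± 15.3 in iSOD2 hearts (log2 fold change -0.61, SE 0.37), and Melk 22.1 ± 14.5 and 15.1 ± 9.96 (log2 fold change -0.55; SD, n = 5 each). Neither received an adjusted p. With litter as a covariate the median of the list was -0.25. Leaving out 1 mouse moved it both ways. It was -0.04 without control 3, -0.15 without control 4 or iSOD2 7 and -0.19 without iSOD2 8, but -0.47 without control 1 or iSOD2 9. It was 0.02 within litter A alone and -0.37 within litter B alone. In females alone it was -0.57, with 29 of 30 negative, 8 at an unadjusted p under 0.05 and 0 called, and in males alone -0.07, with 18 of 30 negative. For the mitosis list as a whole, neither difference, between litters or between sexes, was tested. Gene by gene, DESeq2 called 1 of 17721 genes for the genotype-by-litter interaction and 0 of 17725 for genotype by sex. Macrophage markers were also mostly lower in iSOD2 hearts, with 7 of 8 fold changes negative, 1 called and sums of 6082 to 7799 in control and 5253 to 7079 in iSOD2 hearts, as were erythroid markers (8 of 9 negative, 0 called, median -0.40, sums of 80532 to 158798 and 74244 to 111074), while hepatocyte markers were higher (6 of 6 positive, 0 called, median 1.24). The part of these cells in the values was not tested. The medians of the other lists were -0.01 for G1 genes, -0.05 for DNA replication and -0.03 for inhibitors.

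Males and females were compared in the same way. DESeq2 with genotype as a covariate called 0 of 8 genes, where 0.483% of the 16348 genes with an adjusted p were called, and log2 fold changes of female over male ran from -0.08 to 0.22 with 6 of 8 positive and 0 at an unadjusted p under 0.05, and edgeR called 0. The sexes were unevenly spread over the litters, and with litter added as a covariate all 8 turned negative, from -0.63 for Birc5 (SE 0.37) and -0.55 for Ccnb1 to -0.09 for Rrm2, with 0 called. In exact tests that permuted sex within litter the lowest p was 0.0333, for Birc5, and the other 7 were 0.10 or more (60 arrangements, smallest possible p 0.0167). That of Birc5 rested on iSOD2 8, the only female of litter A and its lowest value. The inhibitor Btg2 was the 1 gene of the 4 lists called by sex, lower in females (log2 fold change -0.55, DESeq2 adjusted p = 0.0449), and it was not called by edgeR. With genotype and litter as covariates 0 genes of its list were called, as in 9 of 10 fits that left out a mouse (all but the fit without control 3). For the genotype-by-sex interaction 0 of 8 were called by DESeq2 or edgeR and 0 had an unadjusted p under 0.05, with 0% of 17725 genes called and 210 genes at an unadjusted p under 0.05. The interaction terms were all negative, from -0.80 for Aurkb to -0.29 for Cdk1, with standard errors of 0.484 to 1.33.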

How the data were processed

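Libraries of ribosome-depleted total RNA (TruSeq Stranded Total RNA Gold) were aligned by the authors to mm10 with STAR and summed over the exons of 1 transcript per gene with HOMER, with no strand option stated. The deposited numbers, estimated counts that move in steps of 0.5, were not normalized by the authors, and the table adds an exon length for each gene. Counts were rounded to whole numbers, and genes under 10 counts summed over libraries were left out. The Wald test of DESeq2 1.42.0 (R 4.3.3), scaled by median-of-ratios size factors, was fitted on the whole table, and a gene was called at a Benjamini-Hochberg adjusted p of at most 0.05 and an absolute log2 fold change above 0.25, as the study's methods state. Genotype had no covariate, and litter and sex were fitted with genotype as a covariate. Fold changes were not shrunken. Exact permutation tests, two-sided, used log2(normalized count + 1). Scripts were tested on simulated data.

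Besides the 8 genes, up to 4 genes per list by absolute log2 fold change (mean of at least 10 normalized counts) and the 10 genes most like the 8 are named, and other genes were named after their values were seen. The 8 genes and the lists were chosen with earlier results of these data known. Correlations had been planned over all 10 mice and were taken within litter B because the litters form separate clusters. Alternatives were edgeR 4.0.16 quasi-likelihood, TMM scaling, other filters and thresholds, covariates, subsets of mice, an exon length correction and leaving out each mouse. Fits of litter within 1 sex or 1 genotype, the correlation within litter B and the likeness on deviations from litter means were added after seeing the data. Depth was 16.4 to 24.3 per library in units of 1000000 counts, and the intervals, taken from replicate mice, include counting error.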

Additional observations from a re-analysis of the deposited data

How the results depend on the processing

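The directions of all 8 litter differences were the same under every alternative run. The 7 genes called became 6 with edgeR and with genotype and sex as covariates, 4 in males alone, 3 in control mice alone, 2 in iSOD2 mice alone and 1 in females alone (litter A held 1 female, so that fit says nothing of litter among females), and 4 to 7 without 1 mouse. The 21 mitosis genes called became 11 in males, 1 in iSOD2 mice, 1 in females and 17 to 25 without 1 mouse. The 7 replication genes became 2 with edgeR, 3 with genotype and sex as covariates, 3 in males, 1 in iSOD2 mice, 0 in females and 2 to 8 without 1 mouse (4 or fewer without control 1, 2, 3 or 4 or iSOD2 7 or 10). The 6 G1 genes became 3 with edgeR, 3 with genotype and sex as covariates, 2 in males, 2 in control mice, 1 in iSOD2 mice, 0 in females and 1 to 6 without 1 mouse (3 or fewer without control 1 or 4 or iSOD2 7 or 10). Subsets hold fewer mice, and the cause of the other changes was not tested. The median correlation within litter B was 0.489 to 0.893 without 1 mouse.

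Genotype differences changed sign between settings, with 0 called in any. In litter A alone they were 0.0627 for Mki67, 0.30 for Top2a, 0.27 for Ccna2, 0.23 for Ccnb1 and -0.11 for Birc5, and in males alone 0.0458 for Top2a, 0.0258 for Cdk1, 0.20 for Ccna2, 0.0156 for Ccnb1, 0.36 for Aurkb and 0.0918 for Rrm2. In females alone Birc5 was at -0.24, and with sex and litter as covariates Aurkb was at 0.0129. Without 1 mouse they ran from -0.62 to 0.0795 for Top2a, -0.34 to 0.19 for Cdk1, -0.25 to 0.10 for Ccna2, -0.41 to 0.20 for Ccnb1, -0.26 to 0.13 for Aurkb, -0.19 to 0.29 for Birc5 and -0.20 to 0.0304 for Rrm2. Sex differences with genotype and litter as covariates were -0.33 for Mki67, -0.30 for Top2a, -0.31 for Cdk1, -0.19 for Ccna2, -0.25 for Aurkb and -0.0879 for Rrm2, and with the length trend removed 0.000712 for Birc5. Without 1 mouse they ran from -0.13 to 0.55 for Mki67, -0.14 to 0.64 for Top2a, -0.0393 to 0.77 for Cdk1, -0.0192 to 0.42 for Ccna2, -0.26 to 0.34 for Ccnb1, -0.0592 to 0.55 for Aurkb and -0.23 to 0.24 for Birc5. The genotypes share no replicate number, so mice were matched only by litter. Ccnb1, Aurkb and Birc5 had 5.5 to 38 counts per library, and the part of counting error in their spread was not tested.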
